A study of Mus musculus with 2 samples.

Results

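The probes described here lie at 4 groups of developmental transcription factor genes on a mouse array that reads DNA methylation. Non-control probes were taken where their mm8 position fell wholly within chr13:71400000-73500000 (Irx1, Irx2 and Irx4), chr14:121200000-122000000 (Zic2 and Zic5), chr9:90800000-91600000 (Zic1 and Zic4) or chr7:69800000-70600000 (Nr2f2). This gave 191 of 90535 probe spots, and their positions fell into 50 of the 23738 genomic intervals of the deposited value table. The Irx window held 75 probes in 19 intervals, the Zic2 and Zic5 window 64 probes in 17 intervals, the Zic1 and Zic4 window 20 probes in 5 intervals and the Nr2f2 window 32 probes in 9 intervals. The windows were chosen by the PVH over ARH ratios of these same arrays, which were known when they were proposed. Those ratios are therefore given as a description. How many intervals of the windows passed the threshold of a fit over all intervals is counted beside the share over the whole array. The choice of windows used the values behind these counts, so they support nothing.

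Genomic DNA came from micro-dissected pieces of 2 parts of the hypothalamus, the paraventricular nucleus (PVH) and its neighbour, the arcuate nucleus (ARH), of C57BL/6 mice of mixed sex at postnatal day 10, with 7 pieces in each pool. Both nuclei come from mice of the same strain and age, and no allele or treatment is given in the labels. The second nucleus is named ARH in the source names and the design text, whereas the series title and its tissue tag name the ventromedial nucleus. It is called ARH here. There were 2 arrays, labelled as biological replicates, each with a PVH pool and an ARH pool hybridized together. The dye of PVH was Cy5 on the first array (replicate 1) and Cy3 on the second (replicate 2). Replicate and dye thus changed together, so the SD between arrays holds differences of both, which cannot be told apart. Pools average over the cells of a dissected piece, so a change in the mix of cells and a change within cells cannot be told apart. The assay was done on DNA, and there is no RNA measurement here against which the identity of the dissected tissue could be checked.

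Irx genes encode homeodomain proteins that pattern the neural tube and other tissues, and Irx1, Irx2 and Irx4 form one of the Irx clusters of mammals. Zic genes encode zinc finger proteins of the developing dorsal neural tube and forebrain, and they lie in head-to-head pairs such as Zic2 with Zic5 and Zic1 with Zic4. Nr2f2 encodes COUP-TFII, an orphan nuclear receptor with roles in blood vessels and in neuron migration. Genes of this kind often lie in long CpG-rich stretches where DNA methylation differs between tissues. In a RefSeq gene table for build GRCm38.p6, no other protein-coding gene lies between Irx1, Irx2 and Irx4, between Zic5 and Zic2, or between Zic1 and Zic4. That table was used for gene order only, since its positions cannot be set against mm8.

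The assay, methylation-specific amplification, cuts DNA with SmaI and then XmaI. Both enzymes recognise CCCGGG. SmaI is blocked by methylation of the CpG in the middle and gives blunt ends at unmethylated sites. XmaI then opens the methylated sites with overhangs to which adaptors are ligated, so amplification favours fragments methylated at both ends. The intervals of the deposited table were taken as these fragments, and 2 intervals that touch depend on 1 common site, so their values are linked. The log2 ratio is positive where PVH gave more signal than ARH, and it gives no absolute level of methylation.

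RefSeq promoter sequences (250 bases before to 50 bases after the gene start, build GRCm38.p6) were available for 6 of the 8 genes, namely Irx2, Irx4, Zic1, Zic4, Zic5 and Nr2f2. CCCGGG, which reads the same on both strands, occurred in 1 of the 6, that of Zic1, against 13.5% of all 32851 promoters of this length in the table. The Zic1 promoter is shown because it holds the sequence that the assay reads. It lies at chr9:91365719-91366018 on the minus strand of GRCm38.p6 and is printed on the strand of the gene with CCCGGG in capitals.
Zic1 promoter: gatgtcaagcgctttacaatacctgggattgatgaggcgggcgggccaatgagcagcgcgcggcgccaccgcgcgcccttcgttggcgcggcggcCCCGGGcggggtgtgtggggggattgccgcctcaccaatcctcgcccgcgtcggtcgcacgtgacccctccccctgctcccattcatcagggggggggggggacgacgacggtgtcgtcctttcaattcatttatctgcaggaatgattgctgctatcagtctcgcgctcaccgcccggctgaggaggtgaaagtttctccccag
The site begins 155 bases before the gene start. This window holds 31 CpG dinucleotides, as does that of Irx4, against a median of 7 in all promoters. The promoters of Irx2, Zic5, Zic4 and Nr2f2 hold 25, 15, 8 and 2. No CCCGGG in a window of this size says nothing about sites farther away, and no interval of the array could be placed on a promoter or an exon, because the files hold neither probe sequences nor gene names and no mm8 annotation was used. Of the related genes Irx3, Irx5, Irx6, Nr2f1 and Nr2f6, none could be placed on the array, and their intervals were not analysed here.

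Of the 50 intervals, 47 had at least 2 probes that passed the background filter and entered the fit over all intervals (the tested intervals). PVH had the higher signal at 5 of the 47 at an adjusted p under 0.05 in limma, and 0.447% of all 22350 tested intervals were called in that direction. None of the 47 was called lower in PVH, and 0.944% of all tested intervals were. At an unadjusted p under 0.05 in limma, 2 of the 47 were lower, and 4.30% of all tested intervals were. When the background was corrected by normexp without loess, 1 of the 5 higher intervals was called, and 37 of all intervals in either direction. Of the 5, 1 passed the background filter only through PVH, since most of its probes were not well above background in ARH. With both nuclei required to be above background it dropped out, and the count was 4 of 46 (0.433% of all intervals then tested). The 5 lay in 3 places: 3 touching intervals in the Irx window, 1 interval in the Zic2 and Zic5 window and 1 in the Nr2f2 window. Where a ratio of 1.5-fold on each array was asked for, 6 of the 47 were higher in PVH (0.689% of all tested intervals), none was lower (1.61%) and none went in opposite directions (0.953%). The sixth was a further interval of the Irx window. With both nuclei required to be above background, 5 of 46 were higher by this size, and the share over all intervals was then not counted. Averaged over the arrays, the log2 ratio had a median of 0.13 over the 47 intervals and of 0.012 over all tested intervals. Over the 42 that were not called it had a median of 0.11 and ran from -0.51 to 0.84.

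**Figure D1:**
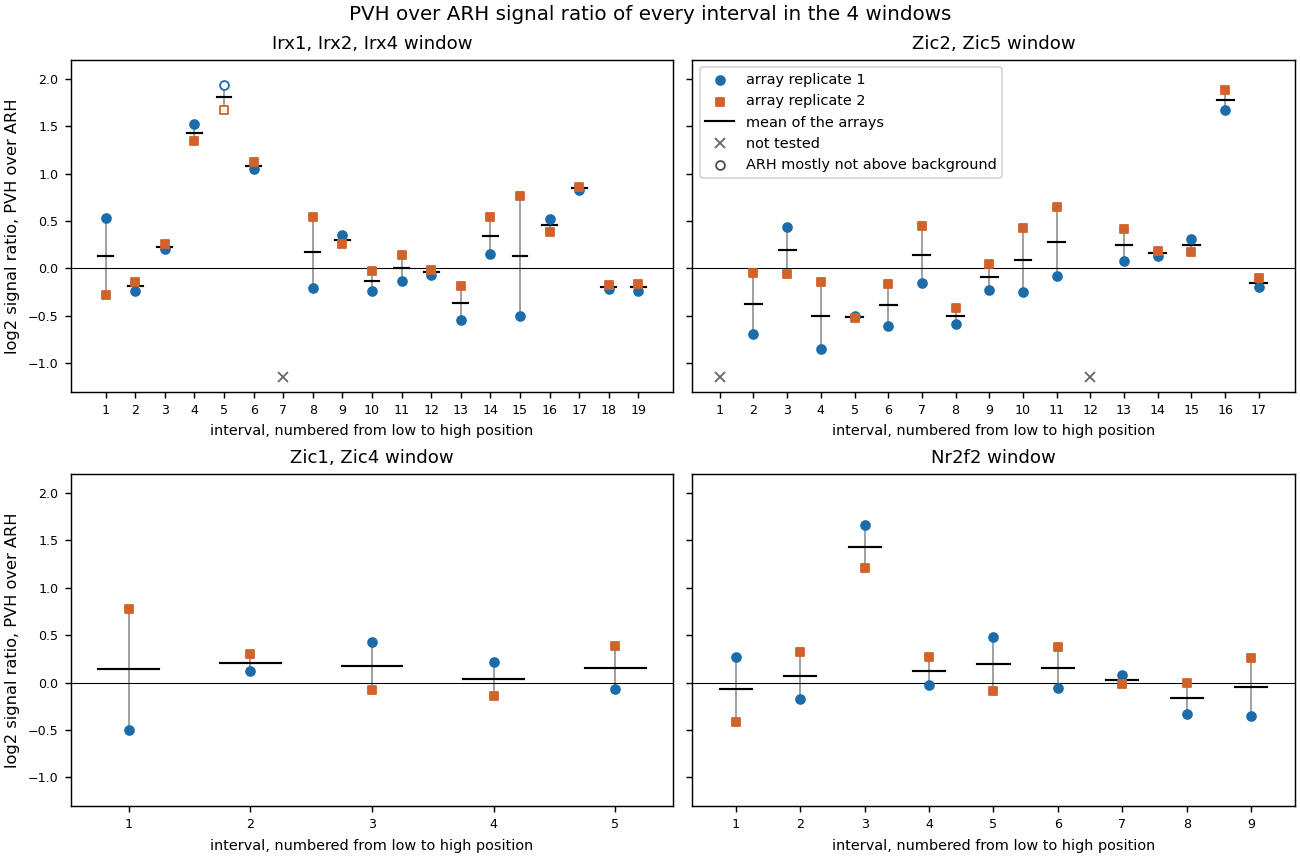
Log2 signal ratio of PVH over ARH (vertical axis) for each interval of the 4 windows, numbered by position (horizontal axis). Circles and squares are the 2 arrays, bars their mean, and crosses at the foot mark the 3 intervals that were not tested. In the Irx window intervals 4 and 6 stand at means of 1.43 and 1.09. Interval 5 is drawn open, because its measured mean of 1.81 rests mostly on ARH signals not well above background. It is given as a bound of at least 1.42 in the processed signals, which depends on the floor set for ARH. In the Zic2 and Zic5 window interval 16 stands at 1.78, and in the Nr2f2 window interval 3 stands at 1.44.

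In the Irx window the nuclei differed most in a run of 6 touching intervals that spans 6274 bp, chr13:72423077-72429350. PVH exceeded ARH most in its 3 leftmost intervals. The left end, chr13:72423077-72423511, had mean processed signals of 4189 and 5372 in PVH on replicates 1 and 2, against 1472 and 2035 in ARH. Both PVH values lay above both ARH values. Its log2 ratio was 1.43 ± 0.13 (SD, n = 2 arrays), so that PVH gave 2.70 times the signal of ARH. Its 4 probes, which are spread along the interval, had mean log2 ratios of 1.32, 1.51, 1.52 and 1.38 from left to right. Thus the excess of PVH was of like size along this bright fragment, although the first probe was at 1.91 on replicate 1 and 0.74 on replicate 2.

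The second interval of the run, chr13:72423512-72424747, was dim, and its ratio is given as a bound on the processed signals. Its mean processed signals were 102 and 112 in PVH and 29.0 and 35.2 in ARH. All 4 probes were well above background in PVH on both arrays. In ARH 1 of the 4 probes was well above background on replicate 1 and 2 of the 4 on replicate 2. The interval thus entered the fit only through PVH, where it was higher. With ARH set to the floor given below, PVH was at least 2.68-fold higher over the interval in the processed signals. This is a log2 ratio of at least 1.42, against a measured 1.81 ± 0.18 (SD, n = 2 arrays). The leftmost probe, which was above background everywhere, had signals of 201 and 241 in PVH and 65.9 and 72.3 in ARH and a mean log2 ratio of 1.67. The next 2 probes to its right were not well above background in ARH on either array, and PVH was there at least 3.04-fold and at least 2.51-fold higher. For these bounds the ARH signal of a probe not well above background was set, per array, to the higher of the probe's own signal and the lowest signal of any probe well above background in that channel. The first of these 2 probes read 25.7 in ARH on replicate 2, above that lowest signal of 23.6, and was still not well above background. The bounds thus depend on this floor and are not strict lower limits. With another background correction, which adds an offset to each signal, the ratio of this interval was 0.65 with loess and 0.73 without. Both values are below 1.42, so the bound holds for the processed signals with this floor only.

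The third interval, chr13:72424748-72426246, had mean processed signals of 408 and 557 in PVH, against 188 and 251 in ARH, with all probes above background. Its log2 ratio was 1.09 ± 0.058 (SD, n = 2 arrays), 2.12 times the ARH signal. From left to right its 4 probes had mean log2 ratios of 1.46, 1.08, 0.93 and 0.87. The probes read 1.73, 0.77, 0.82 and 0.86 on replicate 1 and 1.19, 1.39, 1.04 and 0.88 on replicate 2. All were above 0 on both arrays, and their order along the interval differed between the arrays. The ratio with the other background correction was 0.84 with loess and 0.85 without.

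The fourth interval, chr13:72426247-72427958, was at background. None of its 4 probes was well above background in either nucleus on either array, with processed signals of 5.98 to 13.7 in PVH and 4.89 to 10.4 in ARH, and it was not tested. To its right, chr13:72427959-72428884 had a log2 ratio of -0.20 on replicate 1 and 0.54 on replicate 2. The right end of the run, chr13:72428885-72429350, had signals of 747 and 599 in PVH and of 590 and 508 in ARH, and a log2 ratio of 0.30 ± 0.073 (SD, n = 2 arrays). This interval was not called. Its 4 probes, which share 1 fragment and are not replicates, were above 0 on both arrays, by less than in the 3 leftmost intervals. A probe across the site shared by these last 2 intervals had a mean log2 ratio of 0.20.

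**Figure D2:**
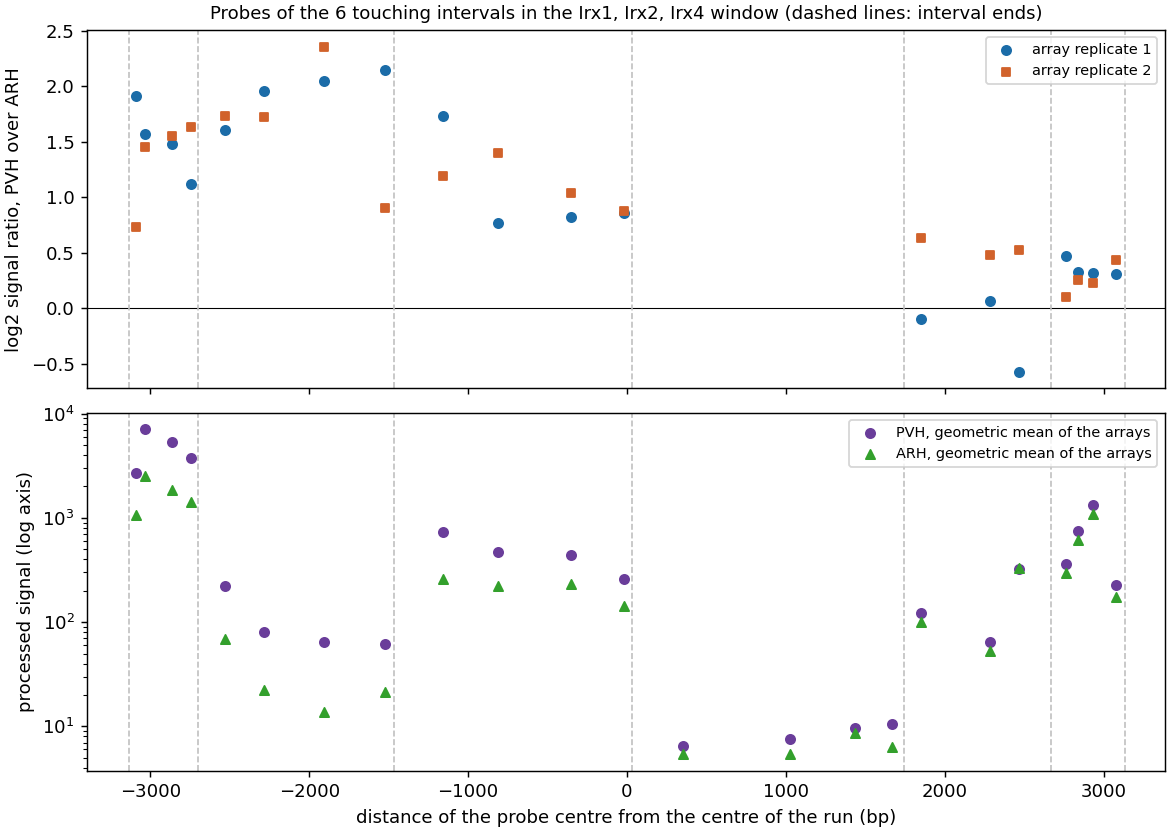
Probes of the 6 touching intervals of the Irx window, by distance from the centre of the run (horizontal axis, bp). The upper panel gives the log2 ratio of PVH over ARH on each array for tested probes, and the lower panel the processed signal of PVH and ARH (log axis), with dashed lines at the interval ends. All 12 probes left of the centre have ratios above 0 on both arrays, and the 4 probes of the fourth interval, at 13.7 or less in either nucleus, are at background.

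Outside this run, the interval of the Irx window with the highest ratio was chr13:73098036-73098880. Its mean processed signals were 902 and 1229 in PVH, against 508 and 663 in ARH. The log2 ratio was 0.84 ± 0.020 (SD, n = 2 arrays), 1.80 times the ARH signal. It was the interval of the windows just below the threshold of the fit, and chr13:72424748-72426246 was the one just above it. The 4 probes had mean log2 ratios of 0.90, 0.86, 0.86 and 0.76, and each exceeded 1.5-fold on both arrays. The interval touching it on the left, chr13:73097497-73098035, was at 0.46 ± 0.095, with log2 ratios of 0.52 and 0.39 on replicates 1 and 2. Farther left by 2575 bp, the touching pair chr13:73093766-73094080 and chr13:73094081-73094921 was at 0.35 ± 0.28 and 0.13 ± 0.89. In the second of these the arrays pointed in opposite directions, at -0.50 and 0.76. To the right, the intervals chr13:73235201-73235419 and chr13:73248262-73248624 were at -0.20 ± 0.030 and -0.20 ± 0.054, slightly below 0 on both arrays.

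The remaining intervals of the Irx window had mean log2 ratios from -0.36 to 0.23. The leftmost ones were bright in both nuclei. The interval chr13:71565283-71565932 had signals of 17483 and 11709 in PVH and of 12143 and 13885 in ARH, and chr13:71871157-71872229 had 8993 and 9011 in PVH and 10455 and 9894 in ARH. In the first PVH was higher on replicate 1 and lower on replicate 2, and in the second it was slightly lower on both. The nearest interval to the left of the run, 42000 bp away at chr13:72380711-72381076, was at 0.23 ± 0.035 (SD, n = 2 arrays). The nearest to its right was 403208 bp away, at chr13:72832559-72832875, with a ratio of -0.13 ± 0.15. The lowest ratio of the window in the main fit was at chr13:73074033-73075358, a dim interval with signals of 67.5 and 73.0 in PVH and 86.1 and 87.4 in ARH (-0.36 ± 0.25). All 4 of its probes were well above background in ARH, but in PVH only 2 on replicate 1 and 3 on replicate 2. With normexp it was at -0.097 with loess and -0.035 without. The interval chr13:71871157-71872229 was then lower, at -0.18 and -0.22.

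In the Zic2 and Zic5 window the nuclei differed most at a single interval, chr14:121618163-121619568. Its mean processed signals were 352 and 543 in PVH, against 111 and 144 in ARH, with all 4 probes above background in both nuclei on both arrays. The log2 ratio was 1.78 ± 0.15 (SD, n = 2 arrays), 3.43 times the ARH signal. It was also the highest of this window on each array, at 1.67 on replicate 1 and 1.88 on replicate 2. Its probes had mean log2 ratios of 1.74, 2.18, 1.58 and 1.61 from left to right, with no probe under 1.37 on either array. With the other background correction the interval was at 1.25 with loess and 1.27 without.

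The neighbours of this interval did not share its ratio. The nearest on the left, chr14:121611205-121611865, ended 6297 bp away and was at 0.24 ± 0.098 (SD, n = 2 arrays), with signals of 467 in PVH and 377 in ARH on replicate 1, and of 1183 in PVH and 1050 in ARH on replicate 2. The next on the left, chr14:121609530-121611047, was at 0.16 ± 0.042. The nearest on the right, chr14:121917896-121918803, began 298327 bp away and was at -0.15 ± 0.067. No interval of the table lay between, so the right limit of the difference was not measured.

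The left part of the window held the lowest ratios of all 47 intervals. The interval chr14:121540801-121541229 had signals of 3420 and 3941 in PVH, against 4793 and 5593 in ARH, and a log2 ratio of -0.51 ± 0.013 (SD, n = 2 arrays). Its 4 probes had mean log2 ratios from -0.56 to -0.47. The interval touching it on the right, chr14:121541230-121542300, was at -0.39 ± 0.32, and chr14:121524248-121525115, whose end lies 15685 bp to the left, was at -0.50 ± 0.51. All 3 were below 0 on both arrays, the last 2 mainly through replicate 1, at -0.61 and -0.85 against -0.16 and -0.14 on replicate 2. A dim interval, chr14:121586286-121587764, was at -0.50 ± 0.12 with signals of 67.9 and 54.7 in PVH and 100.01 and 73.2 in ARH. Between it and the interval higher in PVH, the tested intervals were at -0.089 to 0.28. The interval chr14:121368713-121369434 was the brightest tested interval of the window, with signals of 26241 and 17411 in PVH and 17762 and 19385 in ARH, and its ratio had opposite signs on the arrays. The 2 intervals of this window that were not tested had 1 usable probe each.

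In the Nr2f2 window the nuclei differed most at chr7:70211263-70211675. Its mean processed signals were 2748 and 3596 in PVH, against 806 and 1523 in ARH. The log2 ratio was 1.44 ± 0.33 (SD, n = 2 arrays), 2.71 times the ARH signal. The interval rests on 2 probes, the fewest allowed, which were at 1.44 and 1.89 on replicate 1 and at 1.14 and 1.27 on replicate 2. Both PVH values lay above both ARH values for the interval.

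The other 8 intervals of the Nr2f2 window had mean log2 ratios from -0.17 to 0.19. The nearest on the left, chr7:70208371-70208601, ended 2661 bp away and was at 0.071 ± 0.35 (SD, n = 2 arrays). The nearest on the right, chr7:70233361-70233645, began 21685 bp away and was at 0.13 ± 0.21. Of these 8 intervals 7 had ratios of opposite sign on the arrays, and the other, chr7:70242614-70243271, was at -0.33 and -0.0039. The leftmost interval, chr7:69830251-69831145, was the brightest of all 47, with signals of 55268 and 34087 in PVH and of 41701 and 46817 in ARH. PVH was there higher on replicate 1 and lower on replicate 2.

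**Figure D3:**
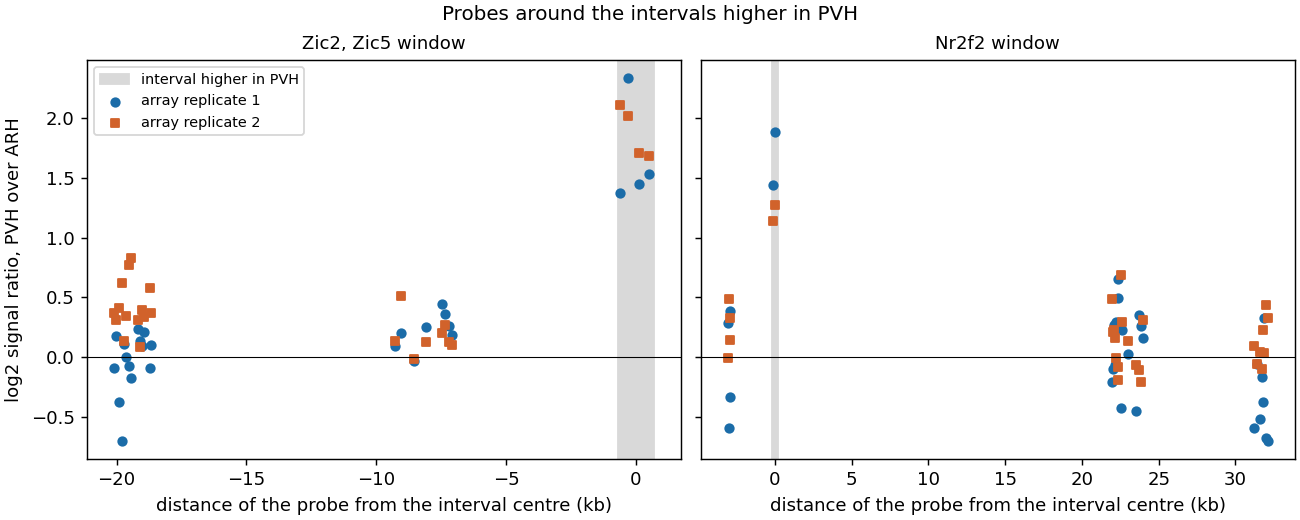
Log2 ratio of PVH over ARH of single probes (vertical axis) by distance from the centre of the interval higher in PVH (horizontal axis, kb) in the Zic2 and Zic5 window and in the Nr2f2 window. Circles and squares are the 2 arrays and the grey band is the interval. Its probes stand at 1.37 or more in the Zic2 and Zic5 window and at 1.14 or more in the Nr2f2 window on each array, above every neighbouring probe drawn.

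In the Zic1 and Zic4 window no interval reached 1.5-fold on both arrays. The 5 intervals lay between positions 91159764 and 91176623 of chromosome 9, and their mean log2 ratios were 0.036 to 0.21. The highest was at chr9:91162631-91163252, with signals of 2166 and 2279 in PVH, against 2053 and 1973 in ARH, and a log2 ratio of 0.21 ± 0.13 (SD, n = 2 arrays). It was the only one of the 5 with the same sign on both arrays. The lowest, chr9:91163826-91164559, was at 0.036 ± 0.25 on 2 tested probes. The arrays were farthest apart at chr9:91159764-91160292, where the log2 ratio was -0.50 on replicate 1 and 0.78 on replicate 2 and all 4 probes were negative on replicate 1 and positive on replicate 2. Signals there were 250.2 and 1209 in PVH and 350.1 and 718 in ARH. The SD of 0.90 is the largest of the 47 intervals.

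At the level of single probes, 23 of the 181 tested probes were at least 1.5-fold higher in PVH on both arrays, against 0.717% of all tested probes. None was lower by this size on both arrays (1.76%), and 4 reached it in opposite directions (2.12%). All 18 probes of the 5 called intervals were among the 23. They include the probes of chr13:72423512-72424747 that were not well above background in ARH on 1 or both arrays. These passed the filter only through PVH, where they were higher. The other 5 were the 4 probes of chr13:73098036-73098880 and the leftmost probe of the interval touching it on the left. Probes of one fragment are amplified together and are not replicates. The 10 probes that lay in no single interval each crossed an interval end, 5 of them a site between touching intervals, and had mean log2 ratios from -0.073 to 0.25.

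Signal, length and spacing were not used to choose the windows. The 47 intervals had a median signal over both nuclei and arrays of 525, against 1055 over all tested intervals, and ran from 58.5 to 43793. The 5 called intervals ran from 58.5 to 2865, which is from percentile 1.17 to percentile 68.5 of all tested intervals. The median length was 654 bp over the 50 intervals and 794 bp over all intervals, and the 5 called ones were 413 to 1499 bp long. Touching intervals made up 52.0% of the 50 and 40.7% of all intervals. All probes were well above background in both nuclei on both arrays in 39 of the 50 intervals (78.0%), and in 83.4% of all intervals.

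**Figure D4:**
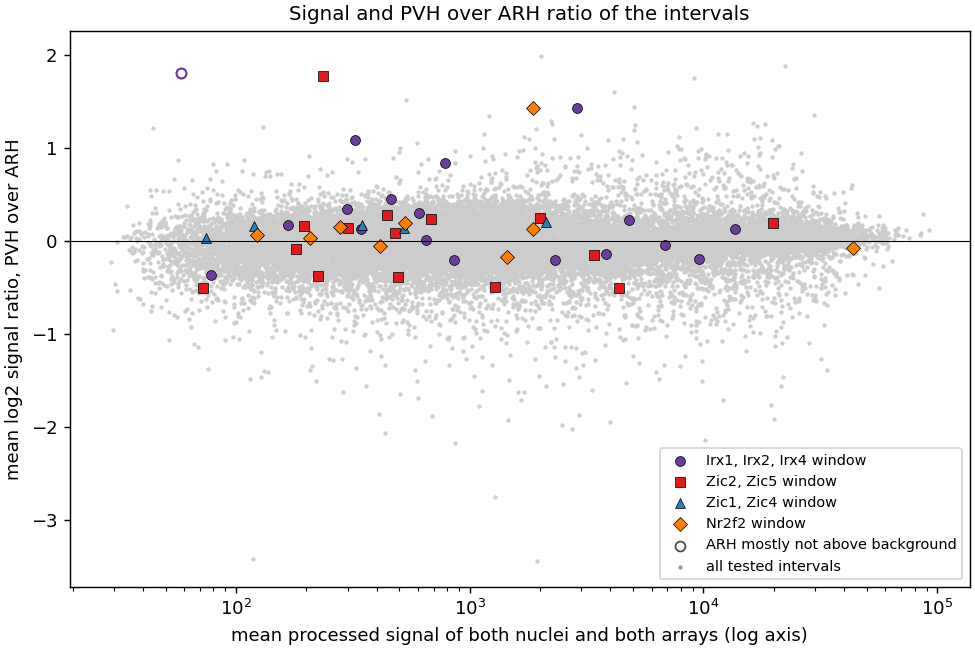
Mean log2 ratio of PVH over ARH (vertical axis) against mean processed signal over both nuclei and arrays (horizontal axis, log axis) for the 47 tested intervals of the 4 windows (coloured) and all tested intervals (grey). The 5 intervals with the highest ratios stand at 1.09 to 1.81 over signals of 58.5 to 2865. The one at 1.81 is drawn open, since its ratio is given as a bound of at least 1.42 in the processed signals. That bound depends on the floor set for ARH.

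The arrays pointed the same way at 27 of the 47 intervals (57.4%), 14 above 0 on both and 13 below 0 on both, and at 48.9% of all tested intervals. In the Irx window 14 of 18 intervals had the same sign on both arrays, in the Zic2 and Zic5 window 10 of 15, in the Nr2f2 window 2 of 9 and in the Zic1 and Zic4 window 1 of 5. The median SD between arrays was 0.11 in the Irx window, 0.24 in the Zic2 and Zic5 window, and 0.33 in the Zic1 and Zic4 and Nr2f2 windows, against 0.23 over all tested intervals. The windows were chosen by the ratios of these same arrays, so a shared sign is partly built in. These counts and SDs are a description and support nothing. The authors' deposited table gave the called intervals close values on each array: 1.51 and 1.39 at chr13:72423077-72423511, 1.82 and 1.77 at chr13:72423512-72424747, 1.11 and 1.15 at chr13:72424748-72426246, 1.67 and 1.90 at chr14:121618163-121619568, and 1.77 and 1.21 at chr7:70211263-70211675. These come from the same arrays and are no further replicate. At the edges of the windows, the outermost tested intervals inside had mean log2 ratios from -0.37 to 0.16 and the nearest tested intervals outside from -0.47 to 0.30.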

How the data were processed

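Per the file headers, the authors extracted linear spot intensities with Agilent Feature Extraction 10.5.1.1 (the submitters' processing notes name 9.1.3.1), with background subtraction, spatial detrending and 1 linear dye factor per channel. Positions are on mm8. The deposited LogRatio column is log10 of red over green. It matched the processed intensities within 0.001 for 98.65% and 98.79% of non-control spots. The deposited interval table holds log2 ratios whose direction and scale were set by comparison with the scanner files. Its centring stays unknown. The deposited flags (other values, 0 or 1) marked spots near background and outliers.

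From the intensities, log2 of PVH over ARH was computed, turned for the dye swap and centred on each array's median (0.0072 and 0.0061 before centring). Control spots and 79 outlier spots were dropped, and a probe was kept if on both arrays at least 1 of its channels was well above background. Probe ratios were averaged per interval. Intervals needed at least 2 such probes, and the 22350 that had them were fitted in limma 3.58.1 (R 4.3.3) with lmFit and eBayes and Benjamini-Hochberg adjustment at 0.05. With 2 arrays there was 1 ratio per array and interval, the eBayes prior was infinite, and every interval had a standard error of 0.26. The small number of arrays limits precision, and over the 22350 intervals the ratios of the 2 arrays had a Pearson correlation of only 0.088. The fit was tried on simulated ratios with known changes, and no result here rests on that trial. Its noise was shuffled between intervals with random signs. It therefore kept neither the link of touching intervals nor a common effect of dye or replicate. The windows, lists and tests were chosen with earlier results of these data known. Named intervals were those called, those at least 1.5-fold apart on both arrays, their 2 neighbours on each side and the extremes of each window, and a few bright or dim intervals were added after their values were seen. Normexp used median spot signals, since the files hold no mean spot signal. Alternatives covered background correction, loess, centring, filters, probe summary, the prior and single arrays.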

Additional observations from a re-analysis of the deposited data

How the results depend on the processing

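With normexp and no loess, 37 of all intervals were called in either direction, and 0.0179% of all were called higher. The count of 5 intervals called higher in PVH was then 1, and the cause was not tested. The one left was chr13:72423077-72423511, at a log2 ratio of 1.35. Under the other alternatives the count was 4 to 6, and 0.416% to 1.04% of all intervals were called higher. The interval chr13:73098036-73098880 was called with normexp and loess, a trended robust prior and the deposited values. In these settings 1.04%, 0.622% and 0.476% of all intervals were called higher, against 0.447% in the main fit. No interval of the windows was called lower under any alternative run. In the main fit 0.944% of all tested intervals were called lower, and this share was not counted for the alternatives. With so few intervals in the windows, the absence of calls says nothing about them. The 6 intervals at least 1.5-fold higher on both arrays became 6 to 9 on a single array. Those lower, none on both arrays, became 0 to 4 on a single array, all 4 on replicate 1. The share of all tested intervals past this size on a single array was not counted, so these single-array counts cannot be judged. Of 222 alternative values for 25 named intervals, 202 stayed within 1 SD of the arrays, 20 moved further, and no called interval changed sign. Many could not move, since a single array always lies within 1 SD of the mean and the 3-probe minimum leaves kept intervals unchanged. The count is thus no measure of stability. With normexp, with and without loess, the called intervals chr13:72423512-72424747, chr13:72424748-72426246 and chr14:121618163-121619568 moved to smaller ratios. The other called intervals did not move in these settings. The interval chr13:72423512-72424747 was left without 2 probes when both channels had to be above background. With ARH set to the lowest signal above background, its measured 1.81 became a bound of at least 1.42 in the processed signals. That alternative was chosen after seeing the data. The interval chr7:70211263-70211675 dropped out at 3 probes or more. Each ratio already sets both nuclei against each other on 1 array, so the fit is paired by array. No further block was possible, since it would leave no residual.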
